A study of Arabidopsis thaliana with 20 samples.

Results

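The transcriptome described here is that of wild-type (WT) *Arabidopsis thaliana* of the Col-0 accession during seed maturation, as captured by 3′RNA-seq in 4 libraries. The libraries were chosen by their labels alone, as all of those with the Col-0 genotype and this assay, and they are 4 of 20 samples in the study and 4 of its 8 3′RNA-seq libraries. The labels give the material as siliques, the seed pods with the seeds inside, taken from 13 to 20 days after pollination, whereas the study's text speaks of freshly harvested seeds. Plants carried no transgene or mutation and grew on soil in a greenhouse with 16 h of light at 22 °C and 8 h of dark at 18 °C. The study's text calls the 4 libraries biological replicates, but how many plants went into each, or whether these were separate plants, is not given in the labels, so the spread given below is the spread between libraries. In 3′RNA-seq, cDNA is primed from the polyA tail and only 3′ fragments are sequenced. A transcript therefore gives counts from its 3′ end whatever its length, and levels in CPM (counts scaled to a library total of 1000000) were compared between genes without dividing by length.

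During maturation the embryo fills with reserves and then prepares to dry. Storage proteins are laid down in vacuoles, oil is packed into oil bodies coated by oleosins, and late embryogenesis abundant (LEA) proteins, small heat shock proteins and soluble sugars build up before water is lost. These programmes are known to be driven by the LEC1, ABI3, FUS3 and LEC2 regulators and by abscisic acid (ABA), the hormone that also holds the mature seed dormant. ABI3, FUS3 and LEC2 bind the RY repeat, and the bZIP factors of ABA response, such as ABI5, bind the ABA-responsive element (ABRE), whose core is shared with the G-box.

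WT1, WT2, WT3 and WT4 held 1342338, 2382760, 2498295 and 959004 counts over 37184 genes. WT4 was the shallowest, and it also stood apart from the rest in its composition. Among the 1826 genes with a mean of at least 50 CPM, WT4 lay more than 1.5-fold below the lowest of the other libraries in 89 genes (4.87%) and more than 1.5-fold above the highest in 6 (0.329%). The same counts were 0 and 2 for WT1, 0 and 0 for WT2, and 1 and 0 for WT3. Values of each library, or values without WT4, are therefore given for many of the results that it decides, but not for all. The part that depth had in the difference of WT4 was not tested.

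Seed maturation genes were prominent among the most abundant transcripts. The gene lists used here were chosen with earlier results of these data known. On them, genes of the 13 storage proteins, 51 LEA proteins and 9 oil body proteins together held 27.3 ± 0.430% of all counts (SD, n = 4). The 10 most abundant genes of each library held a similar share. In WT1 to WT4 these 10 genes took 27.5, 27.0, 25.8 and 29.3% of counts, which is 27.4 ± 1.43% (SD, n = 4). The 100 most abundant genes took 59.0 ± 0.952% and the 1000 most abundant 79.1 ± 0.753%. The first 50% of counts came from 49, 52, 53 and 46 genes. WT4 was the most concentrated library by each of these measures and WT2 or WT3 the least, but the curves of the libraries ran close together over the whole range of ranks. By mean level, 13 genes reached 10000 CPM and carried 31.2% of counts, 113 genes reached 1000 CPM and carried 60.4%, and 846 genes reached 100 CPM and carried 77.6%.

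**Figure D1:**
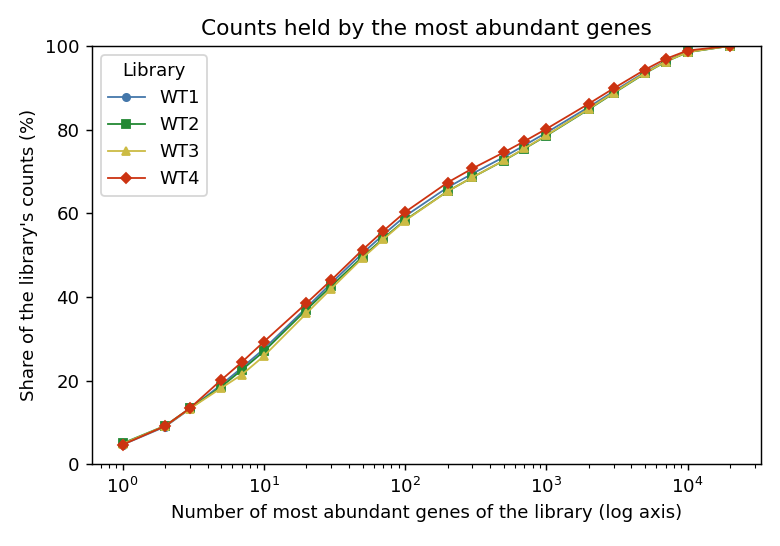
Share of each library's counts, in percent, held by its most abundant genes, against the number of genes on a log axis, with 1 line per library. The 10 most abundant genes hold 25.8 to 29.3% and the 100 most abundant 58.2 to 60.3%, and the line of WT4 runs slightly above the others from the 5 most abundant genes on.

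Of the 30 genes with the highest mean level, 20 fell in the classes described below and 7 of these were LEA genes. The most abundant transcript came from *AT5G35660*, a gene annotated only as a glycine-rich protein, at 46713, 50069, 48854 and 42907 CPM in WT1 to WT4. *RAB18*, an ABA-induced dehydrin of the LEA group, stood at 42577, 41763, 42744 and 46749.5 CPM. *LCR67*, a small cysteine-rich protein of the defensin-like family, stood at 43126, 41917, 41294 and 44533 CPM. These 3 genes had means of 47136 ± 3142 CPM, 43458 ± 2236 CPM and 42717 ± 1429 CPM (SD, n = 4), so that their order lay within the spread between libraries: *AT5G35660* was highest in WT1, WT2 and WT3, and *RAB18* in WT4. Together they took 13.3 ± 0.0804% of counts, from 13.2 to 13.4%.

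Below them came *EPR1*, *GEA6* and *AT2G05580*. *EPR1* encodes an extensin-like protein known from the endosperm, and it was the least even of the abundant nuclear genes, at 31802, 25831, 15592 and 36676 CPM. Its level in WT3 was 0.425 times that in WT4, with WT1 and WT2 in between. *GEA6*, also called EM6, encodes a group 1 LEA protein that is made late in maturation, and its values were 26084, 25611, 25769.6 and 30744 CPM. WT4 was the highest for *GEA6*, and the other libraries agreed within 1.02-fold. *AT2G05580*, a further gene annotated as a glycine-rich protein, had 23827 ± 1285 CPM.

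**Figure D2:**
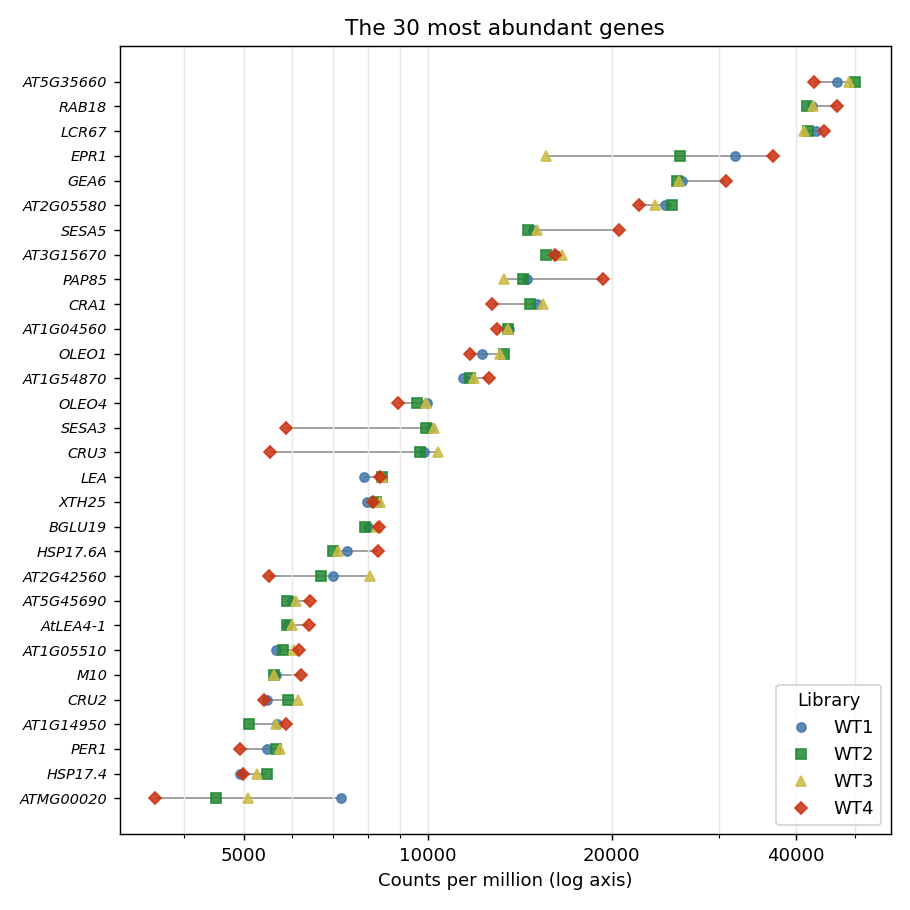
Level of the 30 most abundant genes in CPM on a log axis, with 1 marker per library and a grey line from the lowest to the highest library. Most genes span little of the axis, whereas *EPR1*, *SESA3*, *CRU3* and *ATMG00020* span the most, with WT4 the lowest library in the last 3.

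The promoters of abundant genes often held the letters bound by these regulators. The RY repeat core CATGCA was present on either strand in the 250 bases before the annotated start of 36 of the 100 most abundant protein-coding nuclear genes (36.0%), beside 8.44% of 27431 such promoters in the genome. The ABRE core ACGTG was present in 64 of the 100 (64.0%), beside 22.9% of all. The longer forms that contain these letters, CATGCATG and the G-box CACGTG, were present in 8.00 and 40.0% of the 100, beside 0.776 and 6.49% of all. Both cores together were present in 27 of the 100, beside 2.22% of all. These are matches of letters and not measured binding, and genes of a family share sequence by descent.

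The classes differed in which letters they held. Each of the 5 albumin promoters had both cores and the G-box, and each of the 9 oil body promoters had the RY core, 6 of them with the ABRE core as well. Among the 51 LEA promoters 36 had the ABRE core (70.6%) and 9 the RY core (17.6%). The 324 promoters of genes with a ribosomal protein in their product text stood at 19.4% for the ABRE core and 4.94% for the RY core, and the 8407 promoters of genes with no count at 20.6 and 10.4%. The promoters of the most abundant chromosome 5 gene of all, and of the most abundant chromosome 5 gene of the LEA, 2S albumin and 12S cruciferin classes, are shown because together they cover the contrast between ABRE and RY letters. They were read from RefSeq's TAIR10.1 genome and annotation, 5′ to 3′ on the gene's strand and ending at the base before its start, with RY and ABRE cores on either strand in capitals:
AT5G35660: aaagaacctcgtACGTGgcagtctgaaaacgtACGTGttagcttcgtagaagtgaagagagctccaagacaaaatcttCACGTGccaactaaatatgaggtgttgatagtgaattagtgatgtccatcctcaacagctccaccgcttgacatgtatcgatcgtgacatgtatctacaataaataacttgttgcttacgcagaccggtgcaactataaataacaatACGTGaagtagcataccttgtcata
RAB18: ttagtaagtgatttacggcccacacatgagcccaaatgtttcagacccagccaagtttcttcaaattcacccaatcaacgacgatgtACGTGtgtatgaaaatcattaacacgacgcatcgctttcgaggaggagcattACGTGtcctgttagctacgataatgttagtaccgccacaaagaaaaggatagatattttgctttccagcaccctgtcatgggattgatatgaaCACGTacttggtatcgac
SESA5: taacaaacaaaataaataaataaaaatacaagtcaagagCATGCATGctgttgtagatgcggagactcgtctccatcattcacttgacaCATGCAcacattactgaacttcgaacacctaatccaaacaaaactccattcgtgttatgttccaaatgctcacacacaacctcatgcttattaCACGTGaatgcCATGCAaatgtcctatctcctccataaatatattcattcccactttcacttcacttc
CRA1: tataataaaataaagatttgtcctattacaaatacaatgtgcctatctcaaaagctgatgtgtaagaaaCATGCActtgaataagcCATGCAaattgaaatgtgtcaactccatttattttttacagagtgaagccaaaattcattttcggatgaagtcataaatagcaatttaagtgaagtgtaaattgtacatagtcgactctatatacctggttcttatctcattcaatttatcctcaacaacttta
All 4 genes lie on the minus strand of chromosome 5, with windows at chr5:13853743-13853992 for *AT5G35660*, chr5:26519448-26519697 for *RAB18*, chr5:22239188-22239437 for *SESA5*, chr5:17758337-17758586 for *CRA1*. *AT5G35660* and *RAB18* held 4 and 3 separate stretches with the ABRE core and none with the RY core. *CRA1* held 2 stretches with the RY core and none with the ABRE core. *SESA5* held both kinds, with 3 RY stretches, of which the first is the 8-letter form, and 1 G-box.

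The classes with gene lists, together with the organelle genomes and the genes whose product text names a ribosomal protein, held 36.1 ± 0.980% of counts. LEA genes made up the largest class, with 16.3, 16.0, 16.7 and 17.3% in WT1 to WT4, or 16.6 ± 0.546%. It was 5.50 times the share of oil body genes, the next class. Of the 51 LEA genes 47 had a count and 30 reached 100 CPM. After *RAB18* and *GEA6* the most abundant were *AT3G15670* (16143 ± 392 CPM), *LEA* (8275 ± 265 CPM) and *AT2G42560* (6813 ± 1048 CPM). *EM1*, the close relative of *GEA6*, stood at 2724 ± 77.5 CPM, or 0.101 times its level. Dehydrins other than *RAB18* were lower, with *XERO1* at 3049 ± 182 CPM and *LTI30* at 1463 ± 112 CPM. The LEA genes varied little: the 32 with at least 50 CPM had a median coefficient of variation (CV, SD over mean of the 4 libraries) of 5.42%, beside 9.69% over all 1826 genes at that level. None of the 32 set WT4 apart by more than 1.5-fold, as 5.20% of all genes at that level did. At that rate few of 32 genes would do so, and their absence is not read as a trait of the class. Most of the 32 were well above 50 CPM, where counting error is smaller.

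**Figure D3:**
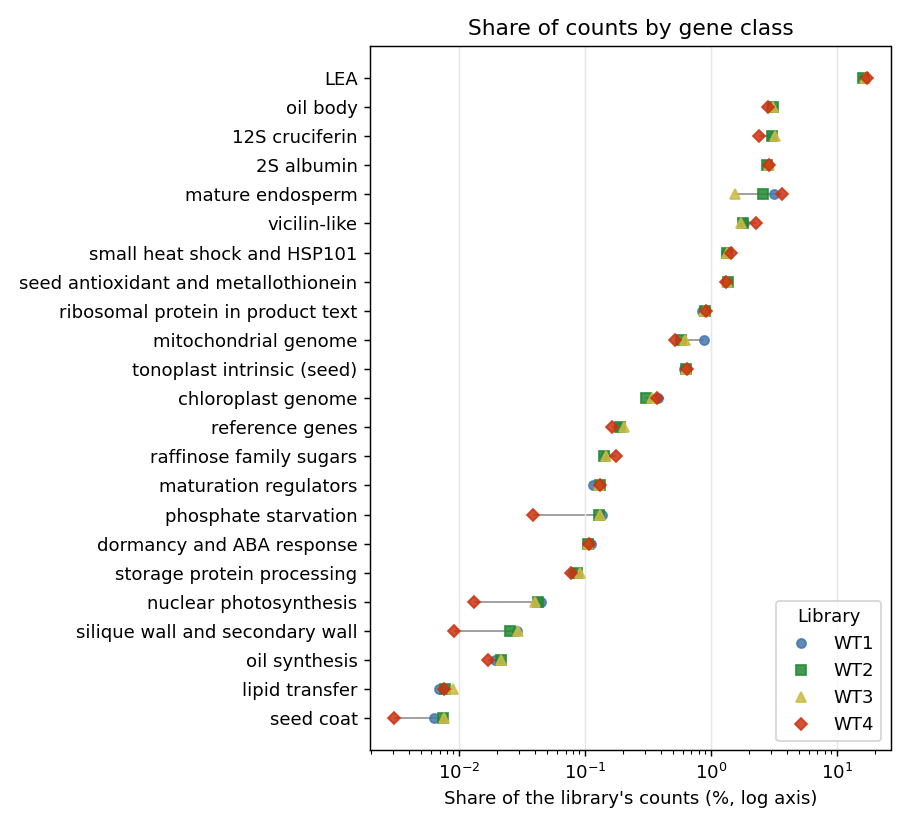
Share of each library's counts, in percent on a log axis, taken by each gene class, with 1 marker per library and a grey line over their range. LEA genes take 16.0 to 17.3%, and the libraries lie apart in mature endosperm, which is *EPR1*, and in phosphate starvation, nuclear photosynthesis, silique wall and seed coat, where WT4 is lowest. Early endosperm genes, of which no library holds more than 0.000223%, are not drawn.

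Storage proteins are the nitrogen reserve of the seed. The 12S cruciferins, 2S albumins and vicilin-like globulins together held 7.75, 7.66, 7.82 and 7.56% of counts, or 7.69 ± 0.113%. The CV of this sum was 1.47%, close to the 1.68% of the 2S class. It was 12.6% for the 12S class and 13.1% for the vicilin-like class. The 12S class stood at 3.07, 3.07, 3.23 and 2.39%, with WT4 the lowest. Its most abundant member *CRA1* had 15075, 14728, 15423 and 12747 CPM, and *CRU3* had 9867, 9732, 10388 and 5527 CPM. WT4 lay below the other libraries in both, by more in *CRU3*, where it was 0.553 times the mean of the other 3. *CRU2* had 5722 ± 353 CPM, and *AT1G03890*, the fourth cruciferin gene, only 305 ± 25.7 CPM.

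The albumin class showed a similar total in every library, 2.86, 2.78, 2.87 and 2.89%, but not the same mixture. *SESA5* had 14866, 14597, 15121 and 20539 CPM, *SESA3* had 10138, 9934, 10228 and 5858 CPM and *SESA1* had 1967, 1857, 1894 and 654 CPM. WT4 was the highest library for *SESA5*, at 1.38 times the mean of the others, and the lowest for *SESA3* and *SESA1*, at 0.580 and 0.343 times. *SESA4* went with *SESA5* (1257, 1145, 1186 and 1675 CPM), and *SESA2* with *SESA3* (347, 272, 292 and 156 CPM). *SESA1* to *SESA4* lie next to each other on chromosome 4, and their near-identical sequences make the split of reads between them uncertain. Without WT4, each of the 5 albumin genes agreed within 1.28-fold over WT1 to WT3. Among vicilin-like genes, *PAP85* held 80.7% of the class and had 14516, 14319.9, 13320.3 and 19348 CPM, again with WT4 the highest. Genes for the processing and sorting of these proteins were much lower. *BETA-VPE*, a vacuolar enzyme that cleaves storage protein precursors, stood at 532 ± 54.6 CPM, *GAMMA-VPE* at 156 ± 17.7 CPM and the sorting receptor *VSR1* at 150.0 ± 14.8 CPM.

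Oil body genes took 3.01, 3.09, 3.12 and 2.82% of counts. Oleosins, which coat the oil body surface, carried most of it: *OLEO1* had 12287, 13353, 13147 and 11718 CPM, *OLEO4* 9981, 9626, 9929 and 8930.1 CPM and *OLEO2* 4082, 3953, 4109 and 3640.2 CPM. WT4 was the lowest in each of these, though the highest library exceeded it by at most 1.14-fold. The caleosins *ATPXG2* and *ATS1* followed at 823 and 753 CPM. *HSD1*, the steroleosin, has 2 near-identical copies that had 1 count between them. Its level is uncertain, because the counts of such copies depend on how shared reads were treated, which is not given in the sources used here. In contrast to the oil body coat, genes of oil synthesis were low, with 0.0198 ± 0.00206% for all 12. *TAG1*, which encodes the DGAT1 enzyme of the last step of triacylglycerol synthesis, had 91.4 ± 10.1 CPM, and the desaturases *FAD3* and *FAD2* had 31.8 ± 10.4 CPM and 21.6 ± 4.96 CPM. *KCS18*, also called FAE1, which elongates fatty acids during seed filling, had 1 count in all 4 libraries.

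Other classes of desiccation and stress tolerance followed. Small heat shock proteins and HSP101 took 1.32, 1.34, 1.33 and 1.44%, with *HSP17.6A* at 7459 ± 576 CPM and *HSP17.4* at 5160.3 ± 249.7 CPM. WT4 was the highest library for the class and for 5 of its 8 genes with at least 20 CPM, beside 29.7% of all 4411 genes at that level. *HSP17.4*, however, was highest in WT2. *HSFA9*, the seed heat shock factor known to activate such genes, was also highest in WT4, at 373, 427, 427 and 498 CPM. A link between its level and that of the class was not tested. Antioxidant and metal-binding proteins took 1.34 ± 0.0183%, led by the seed peroxiredoxin *PER1* (5446 ± 354 CPM) and the metallothioneins *AtMT4b* (3606 ± 359.6 CPM) and *AtMT4a* (2393 ± 159 CPM). Both seed aquaporins of the protein storage vacuole, *TIP3;1* and *BETA-TIP*, were steady at 4146 ± 99.2 CPM and 2195 ± 67.9 CPM. Galactinol synthases make the donor for raffinose sugars, and *GolS2* and *GolS1* stood at 1059.5 ± 107 CPM and 448 ± 58.8 CPM, each highest in WT4.

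The classes left 63.9 ± 0.980% of counts unassigned, and a few families and annotation groups, picked after their levels had been seen, made up part of this. Glycine-rich proteins took 7.28 ± 0.430%, of which *AT5G35660* alone was 64.7%. Genes annotated as uncharacterized or by a domain of unknown function took 6.17 ± 0.0772%, among them *AT5G45690* (6101 ± 224 CPM) and *AT1G05510* (5915 ± 234 CPM), which share a domain. Defensin-like genes took 4.70 ± 0.127%, 91.0% of it from *LCR67*, followed by *PDF2.1* at 2955 ± 75.7 CPM. The polyketide cyclase and lipid transport family took 1.01 ± 0.0467% through 3 neighbouring genes on chromosome 1, *AT1G14950*, *AT1G14940* and *AT1G14930*, at 5571, 2129.7 and 1831 CPM. Members of the HSP70 chaperone family took 0.327 ± 0.0116%, with *Hsp70b* at 2090.0 ± 79.8 CPM, and papain-type cysteine proteases 0.628 ± 0.0124%, with *AT4G11310* at 3951 ± 129.8 CPM. Single genes outside these families were *AT1G04560* of the AWPM-19-like family (13417 ± 302 CPM), the dehydrogenase-like *AT1G54870* (11916 ± 498 CPM), the cell wall enzyme *XTH25* (8177 ± 159.6 CPM) and the beta-glucosidase *BGLU19* (8126 ± 217 CPM). Where such genes have close relatives, as in the glycine-rich and polyketide cyclase families, reads could be split between them, and the level of a single member is uncertain.

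The labelled tissue was checked against marker lists of the other parts of a silique. Markers of the pod wall and of secondary walls were at or near 0: *CESA4*, *CESA8*, *NST1*, *IND*, *ALC* and *SHP2* had no count in any library, *IRX3* (CESA7) had 1 count, and *SHP1* and *AGL8* (FUL) had means of 8.44 and 4.15 CPM. A count of 0 in the 7182397 summed counts allows up to 0.418 CPM, as far as counting error goes. Of the 10 genes 4 had a count, their sum ran from 0.00918 to 0.0295% of counts, and 94.5% of it came from *ADPG1*, a polygalacturonase of dehiscence, at 268, 239.6, 279.8 and 87.6 CPM, with WT4 the lowest. Early endosperm markers had a sum of at most 2.23 CPM in any library. Seed coat genes added up to 0.00607 ± 0.00211%, and 14 of the 18 had a count. The highest were the flavonoid genes *F3H* (12.7, 24.3, 24.4 and 14.6 CPM) and *DFR* (9.68, 13.8, 16.8 and 0 CPM) and the mucilage gene *MUM2* (15.6, 10.1, 11.6 and 1.04 CPM), *BAN*, *TT10* and *TT8* had means under 1 CPM, and *TT12*, *TT2*, *TTG2* and *AHA10* were at 0. Of the 3 mature endosperm markers *EPR1* was among the most abundant genes, whereas *EXPA2* had no count and *MAN7* had 2.75 CPM. Photosynthesis genes of the nucleus took 0.0448, 0.0419, 0.0402 and 0.0130%, and the highest, *PSBR*, had 107, 99.5, 96.9 and 34.4 CPM. In such bulk samples fewer cells of a type cannot be told apart from less RNA per cell.

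Master regulators of maturation spanned the range from abundant to undetected. *ABI5*, the bZIP factor of late maturation, was the highest, at 501, 583, 558 and 553 CPM, followed by *HSFA9*. *ABI3* stood at 69.3, 56.2, 60.8 and 65.7 CPM, and the bZIP genes *BZIP53* and *EEL* at 95.3 ± 17.6 CPM and 53.9 ± 3.85 CPM. The libraries overlapped in these genes, with no library the lowest in all of them. *FUS3* had 3.10 ± 1.82 CPM, a level of 2 to 10 counts per library. *LEC1* and *LEC2*, which act early in embryo development, had no count, *NF-YB6* (L1L) had 1 count, and *ABI4* and the oil regulator *WRI1* had 0.552 and 0.391 CPM. Of the repressors that silence this programme at germination, *HSI2* (VAL1) had 10.7 ± 5.17 CPM and *HSL1* (VAL2) 1.05 ± 0.682 CPM. The 7 regulators with at least 20 CPM had a median ratio of 1.06 between WT4 and the mean of the other libraries, beside 0.976 over all 4411 genes at that level.

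Genes of dormancy and ABA signalling were present at moderate levels and were among the steadiest classes in their summed share, at 0.110, 0.106, 0.106 and 0.108% of counts. *DOG1*, the main quantitative regulator of seed dormancy and the gene around which the study was built, had 46.9, 44.1, 39.2 and 34.4 CPM, a mean of 41.2 ± 5.51 CPM. It was lowest in WT4, but its CV of 13.4% was close to the 12.6% that counting alone gives, and the counts do not separate its short and long isoforms. *AHG1*, the seed phosphatase that DOG1 protein is known to bind, was 11.9 times as abundant, at 476, 482, 473 and 527 CPM. The related phosphatase *PP2CA* (AHG3) had 148 ± 6.81 CPM and *AT4G11040* (RDO5), a further dormancy gene, 111, 94.4, 90.9 and 82.4 CPM. *ABI2* and *ABI1* had 76.9 ± 7.90 CPM and 46.3 ± 12.2 CPM. *ABI1*, together with *E12A11* (MFT) at 58.9, 56.2, 50.8 and 31.3 CPM, was lowest in WT4 by more than 1.5-fold, so that this held for 2 of the 9 members with at least 20 CPM, beside 6.19% of all 4411 genes at that level. The steadiness of the class is that of its sum, of which *AHG1* alone holds 45.5%. The ABA-activated kinases *SNRK2.3* and *SNRK2.2* had 44.0 and 37.2 CPM, and their relative *OST1*, known from guard cells, had 2.89 CPM.

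Transcripts of the ABA turnover enzymes named here were scarce, and other genes of ABA turnover are not described. *CYP707A2*, which breaks ABA down in seeds, had 14.2, 12.6, 13.6 and 21.9 CPM, *CYP707A1* had 0 to 3.13 CPM, and the synthesis genes *NCED9* and *NCED6* had 4.35 ± 1.66 CPM and 1.34 ± 0.919 CPM. *CYP707A1* and *NCED6* had at most 4 counts in any library, so no order between these 2 can be read. *AT2G35330* (PIR1), a ubiquitin ligase of ABA response, had 10.1 ± 1.53 CPM, and *HUB1*, a histone ubiquitin ligase known for its role in dormancy, had 12.4 ± 2.49 CPM.

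Common reference genes differed by up to 162-fold in level. *UBQ10* had 1593, 1558, 1677 and 1319 CPM, *AT5G60390* (EF1A) 133 ± 19.0 CPM and *ACT7* 124 ± 12.9 CPM. EF1A is one of several near-identical copies, so its value is uncertain. *AT4G34270* (TIP41L), *PP2AA3*, *ACT2*, *PEX4* (UBC21) and *AT2G28390* (SAND) were between 9.50 and 15.8 CPM. In each of these 5 the CV was at most 1.72 times that of counting alone, and *AT4G34270* was the steadiest, with 14.9, 16.4, 16.4 and 15.6 CPM.

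Transcripts of the nucleus made up 99.0 ± 0.177% of counts. Because cDNA was primed from the polyA tail, shares by genome or RNA type are those of captured RNA and not of all RNA. The chloroplast genome gave 0.382, 0.307, 0.341 and 0.375% and the mitochondrial genome 0.876, 0.577, 0.625 and 0.514%, of which 78.7% came from *ATMG00020*, at 7227, 4506, 5084 and 3582 CPM. WT1 was the highest and WT4 the lowest for this gene. By the annotation, protein-coding genes of the nucleus took 98.6 ± 0.184% of counts, long non-coding RNA genes 0.182 ± 0.00697%, small nucleolar RNA genes 0.0875 ± 0.00647% and pseudogenes, transcribed ones included, 0.104 ± 0.00362%. The most abundant long non-coding RNA gene, *AT3G06355*, had 476 ± 41.6 CPM. Genes whose product text names a ribosomal protein took 0.886 ± 0.0243% over 324 genes, of which 291 had a count. The text match also takes in translation factors, such as *LOS1* at 147 ± 2.69 CPM, and some nuclear genes for ribosomal proteins of organelles, such as *SSR16* at 323 ± 20.4 CPM.

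Abundant genes were short and simple in structure. The 100 most abundant nuclear protein-coding genes had a median coding length of 633 bases and 57.0% had at most 2 exons, beside 1146 bases and 29.6% for the 19025 protein-coding genes with a count. Weighted by counts, the mean coding length was 969 ± 7.34 bases, beside 1222 bases over all protein-coding genes, and 54.5 ± 0.856% of counts came from genes with at most 2 exons. The libraries ranged from 958 bases in WT3 to 974 bases in WT4. By chromosome, chromosome 5 gave the most counts, from 26.9 to 27.5%, with 8211 genes, whereas chromosome 1 gave 23.4 to 23.7% with 9448 genes.

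Genes with at least 1 count numbered 16955, 18197, 18261 and 15327 in WT1 to WT4, in the order of the totals. At the depth of WT4, 959004 counts, the expected numbers were 16148 for WT1, 16140 for WT2, 16101 for WT3 and 15327 for WT4. WT1 to WT3 thus lay within 0.288% of each other at equal depth, and WT4 was 4.98% below their mean. Over all libraries 20400 genes had a count (69.4% of the nuclear protein-coding genes and 17.6% of long non-coding RNA genes), 14069 had one in every library, 2427 in a single library and 16784 in none. 1997 of the 2427 rested on 1 count in all. With at least 10 counts, the numbers per library fell to 8557, 10872, 10988 and 6950. A level of 1 CPM was reached by 14987 genes, which held 99.8% of counts, and the floor of 3 counts lay at 1.20 CPM in WT3 and at 3.13 CPM in WT4.

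The 4 libraries agreed closely in rank. Over the 20400 genes with a count, Pearson's r of log2(CPM + 0.5) across genes was 0.950, 0.951 and 0.964 for the pairs among WT1, WT2 and WT3, and 0.918, 0.931 and 0.931 for those with WT4. Spearman's rho ran from 0.908 to 0.957. Genes are not independent replicates, and r over genes is given as a description. Among the 1826 genes at 50 CPM, r ran from 0.992 to 0.995 without WT4 and from 0.964 to 0.968 with it. Pairs shared 9 or 10 of their 10 and 94 to 99 of their 100 most abundant genes. A difference of more than 1.5-fold was seen in 2 to 12 of the 1826 genes among WT1, WT2 and WT3 and in 147 to 160 in pairs with WT4. No 2 libraries agreed within sampling noise. The chi-square of 2 libraries over genes, divided by its degrees of freedom, is near 1 where sampling noise alone acts. It was 1.47 for WT1 and WT2, the closest pair, and 4.27 for WT3 and WT4.

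Counting error was close to the spread of a typical gene, and the spread was smaller without WT4. The median CV of the 1826 genes was 9.69%, and the CV that counting alone gives at the depths of all libraries was 8.33%. The median CV over WT1 to WT3 was 6.49%. Counting error is also smaller without WT4, the shallowest library, and its part in this drop was not separated. A CV above 25% was seen in 89 genes with all libraries and in 10 with WT1 to WT3. The common biological coefficient of variation, which edgeR estimates as the spread beyond counting, was 9.23%, and it was 4.92% without WT4 and 10.2 to 11.3% without any other library. 2S albumin and phosphate starvation genes lay in the upper part of the range at their level.

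**Figure D4:**
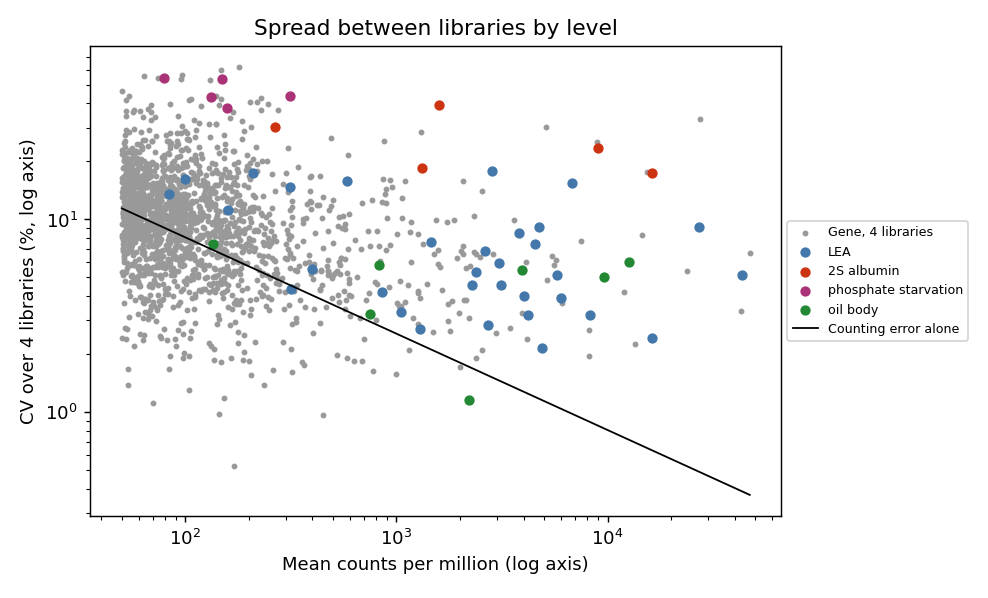
CV over the 4 libraries in percent against mean level in CPM, both on log axes, for the 1826 genes with a mean of at least 50 CPM, with 4 classes coloured and the CV from counting error alone as a line. The 5 albumin genes lie between 17.5 and 39.4% and the 5 phosphate starvation genes between 37.8 and 54.4%, above the LEA genes, which lie between 2.16 and 17.9%.

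The 10 genes with the smallest CV included none of the 3 reference genes at this level. *TSB2*, which encodes a subunit of tryptophan synthase, had 168, 170.4, 169.7 and 169 CPM, a CV of 0.525% where counting alone gives 6.20%. Next were *AT1G07080* (451 ± 4.37 CPM), *EHB1* (144 ± 1.41 CPM) and *GAMMA CAL2*, a subunit of mitochondrial complex I (70.0 ± 0.783 CPM), followed by the oleosin gene *AT3G01570* (2216 ± 25.5 CPM), cyanase *CYN* (153 ± 1.81 CPM), *AT5G16550* (104 ± 1.36 CPM), *PIP1B* (235 ± 3.23 CPM), *MORF9* (53.6 ± 0.743 CPM) and *SAG24* (204 ± 3.19 CPM). These are the lowest 10 of 1826 values, each below its counting error, and they were picked as the lowest of many.

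The 10 genes with the largest CV were decided by WT4, which was the lowest library in 9 of them and the highest in 1. *GRP-3*, a glycine-rich cell wall protein, had 232, 235, 236 and 13.6 CPM. *XTH24*, which remodels xyloglucan in walls, had 206, 187, 184 and 15.6 CPM, and the peroxidase *PRXCB* had 124, 118, 129.7 and 15.6 CPM. In each the first 3 libraries agreed within 1.12-fold and WT4 was 0.0579, 0.0813 and 0.127 times their mean. The others that were low in WT4 were *SAG13*, a senescence-associated gene, at 90.9, 78.9, 73.2 and 11.5 CPM, the protease *ALP* (aleurain-like) at 180.3, 160.3, 153 and 28.2 CPM, the berberine-bridge-like oxidases *AT2G34810* and *AT1G30700* at 19.8 and 18.8 CPM in WT4 against means of 120.0 and 60.6 CPM in the rest, and the phosphate starvation genes *PEPC1* and *PAP17*. *GT18*, a glycosyltransferase, was the exception, at 47.7, 68.0, 48.0 and 132 CPM. None of the 10 was among the 10 most variable genes when WT4 was left out.

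The phosphate starvation genes, on a list chosen with earlier results of these data known, were low in WT4 as a group. Plants induce these genes when phosphate is short: SPX proteins sense the state, phosphatases release phosphate, and sulfolipid and galactolipid enzymes replace phospholipids. In WT1 to WT4 the 17 genes took 0.137, 0.129, 0.131 and 0.0387% of counts. WT4 was the lowest library in all 12 members with at least 20 CPM, and by more than 1.5-fold in 9 of them, with a median ratio of 0.292 to the mean of the other libraries. Over all 4411 genes at that level WT4 was the lowest in 37.6%, and by more than 1.5-fold in 6.19%, with a median ratio of 0.976. *PS2*, a phosphatase, was the most abundant member, at 411, 363, 369 and 111 CPM. The phosphatase *PEPC1* had 199.7, 183, 183 and 29.2 CPM, and *SPX1* had 165, 157, 159 and 46.9 CPM. WT1 to WT3 agreed within 1.13-fold in these genes. The sulfolipid gene *SQD2* had 38.0, 42.0, 42.8 and 7.30 CPM, the galactolipid gene *MGD2* 26.1, 19.7, 22.0 and 16.7 CPM, and the phosphate transporter *PHT1;4* 31.3, 23.5, 22.8 and 0 CPM. *IPS1* and *AT5G03545* (AT4), the non-coding RNAs that sequester miR399, had 14.2, 16.4, 11.6 and 0 CPM and 33.5, 26.0, 25.2 and 2.09 CPM. *MGD2* was the member among these that differed the least, with a ratio of 0.738 to the mean of the other libraries. *SPX2*, a member whose levels are not given above, had a ratio of 0.761. *PHT1;1* had no count in any library.

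**Figure D5:**
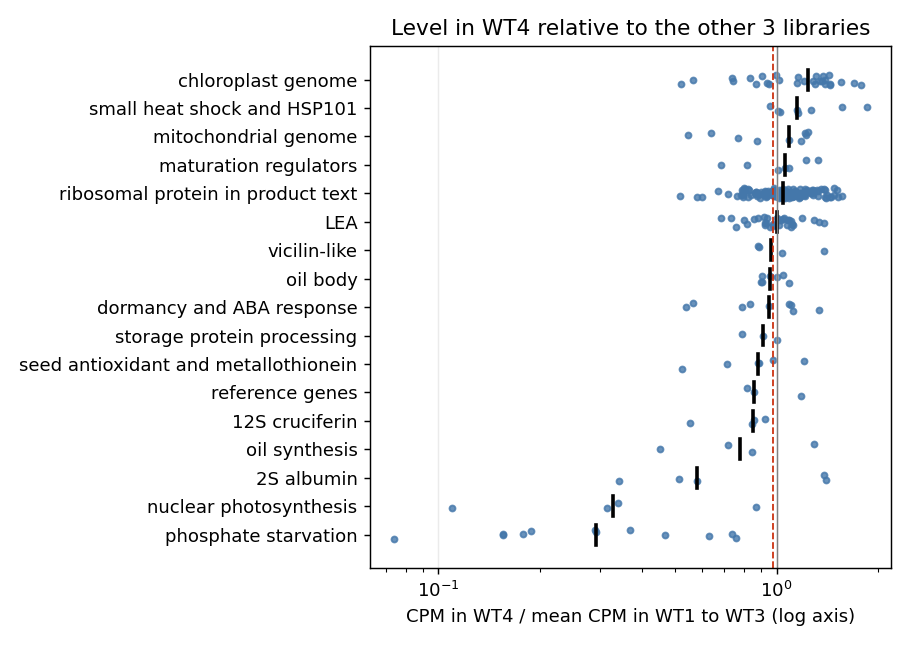
Level in WT4 divided by the mean of WT1 to WT3, on a log axis, for each gene with a mean of at least 20 CPM in the classes with 3 or more such genes; points are genes, black bars class medians, and the dashed red line the median of 4411 genes, 0.976. Phosphate starvation genes have a median of 0.292 and nuclear photosynthesis genes 0.328, LEA genes 1.00 and chloroplast genome genes 1.24.

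Nuclear photosynthesis genes were low in WT4 too, which was the lowest in 3 of the 4 genes with at least 20 CPM, with a median ratio of 0.328. *RBCS1A*, the small subunit of Rubisco, had 32.0, 31.9, 25.2 and 9.38 CPM, and *RCA*, Rubisco activase, 32.0, 28.1, 25.6 and 3.13 CPM. *LHCB4.1* was the exception, at 43.2, 64.6, 43.6 and 43.8 CPM. Genes of the chloroplast genome differed, with WT4 the highest in 14 and the lowest in 5 of 28 genes and a median ratio of 1.24, whereas WT4 was the highest in 29.7% of all genes at that level. The dehiscence gene *ADPG1* and the seed coat genes *DFR* and *MUM2* were low in WT4 as well, at 87.6, 0 and 1.04 CPM against means of 263, 13.4 and 12.4 CPM. The WT4 values of *DFR* and *MUM2* lie below its floor of 3 counts, 3.13 CPM. *F3H*, the highest of the seed coat genes, was lowest in WT1 and not in WT4. The part of residual pod, seed coat or green tissue in the difference of WT4 was not tested.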

How the data were processed

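Total RNA of the material labelled as siliques was sequenced by 3′RNA-seq, in which barcoded oligo(dT) primers with unique molecular identifiers prime the cDNA. The authors aligned reads with STAR 2.7.8a (per the labels' processing notes, on TAIR10), separated libraries with BRBseqTools and deposited a table of whole-number read counts by gene and library that had not been normalized. Which annotation was counted, with which strand setting, and whether identifiers were collapsed is not given in the sources used here, so overlapping and antisense genes cannot be told apart, nor can copies that share sequence. Intervals and floors cover counting error only. Of 37184 gene IDs, 36899 matched RefSeq's TAIR10.1 annotation, which gave symbols, product texts and gene structure. The other 285 belong to the organelle genomes and are named by ID. Promoters were read from TAIR10.1. At each of 10 positions that the study gives on chromosome 5 of TAIR10, the letters AGGT were found within 5 bases on TAIR10.1, as in 2.06% of windows of that length.

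From these counts, CPM of the library total, its mean and SD over the 4 libraries, class shares, the number of genes with a count at 959004 counts (exact hypergeometric expectation) and agreement between libraries were computed in Python 3.11.15 (pandas 2.3.3, scipy 1.17.1). The pseudocount was 0.5 CPM. Spread beyond counting came from R 4.3.3 with edgeR 4.0.16 (estimateDisp with an intercept, default filter on low counts), and DESeq2 1.42.0 as the alternative. A run on simulated data covered edgeR's estimate along the trend with level and the recovery of planted variable genes. It did not cover the common and gene-wise values given here. No groups were compared; the only test was Dixon's for 1 separate library among 4. The 21 lists hold 249 genes; genes with a ribosomal protein in their product text (without those whose text names an organelle or its ribosomal subunits, so that some organelle ones remain) and both organelle genomes are classes too. The members and lists were chosen with earlier results of these data known. Genes named were drawn from the 30 with the highest mean, class members with at least 100 CPM or the top 3, and the regulator, dormancy, phosphate starvation and reference lists. Not every member of these sets is named. The 10 with the largest and the 10 with the smallest CV at 50 CPM are named too. Families outside the lists, and other members named, were chosen after their values were seen. Alternatives were other scalings, nuclear totals, summed counts, other minimum counts, pseudocounts and filters, and each library left out. Encoded proteins were not analysed here, nor were the *msh-1*, ChIRP-seq and ChIDP-seq samples.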

Additional observations from a re-analysis of the deposited data

Results flagged for a closer look

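In 13 of 63 quantities (20.63%) 1 library lay far from the other 3, by a gap to its nearest neighbour that took up more of the range over the 4 libraries than Dixon's critical value for 4 samples. Chance gives such a gap in about 1 in 20 groups that were set without sight of the data. The class lists were chosen with earlier results of these data known, so that rate does not hold for class shares. The quantities are also not independent, since they come from the same libraries. WT4 was the separate library in 12 of the 13.

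WT4 was the lowest in 7 of them. The number of genes with a count at equal depth had a gap of 0.9433 of the range. Among class shares the gap was 0.9176 for phosphate starvation, 0.8535 for nuclear photosynthesis and 0.8872 for antioxidant proteins and metallothioneins, where the libraries nevertheless differed little (1.35, 1.35, 1.35 and 1.31%). Among single genes it was 0.9327 for *SESA3* and 0.8651 for *CRU3*, and it was 0.9267 for *AT1G04560*, which had 13596, 13549, 13558 and 12964 CPM.

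WT4 was the highest in the next 5. The gap was 0.8724 of the range for the genes of raffinose family sugars, which took 0.145, 0.141, 0.146 and 0.175% of counts, and 0.8494 for small heat shock proteins and HSP101. It was 0.9079 for *GEA6*, 0.9119 for *SESA5* and 0.9146 for *M10*, at 5660, 5617, 5608 and 6218 CPM. The exception was the gene named *LEA*, where WT1 was the separate library, with 7880 CPM beside 8420, 8437 and 8362 CPM and a gap of 0.865. WT4 was also the library with the lowest total, and the part of its depth or of its tissue in these values was not tested.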

How the results depend on the processing

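No paired analysis was possible because the 4 libraries form 1 group, with no other group to pair them with. Leaving out each library in turn left 142 of 144 values close to the reported one, and the other settings 183 of 192. Close means within 1 SD over libraries or pairs for shares of counts, levels and r, and within the 95% binomial interval for promoter shares. For numbers of genes and the biological coefficient of variation it means within 1.5 times. Leaving out 1 of 4 libraries cannot move a mean share by 1 SD. For shares of counts that outcome was therefore fixed in advance and says nothing about their stability. The 30 most abundant genes kept 29 or 30 members with nuclear genes only, with summed counts and without each library, and other scalings were not run for them. The mean number of genes detected was 17185 with 1 count and 9342 with at least 10 counts, which depth limits. The mean Pearson r over pairs of libraries, 0.941, was 0.861 with a pseudocount of 0.05 CPM, 0.975 with 5 CPM, 0.966 over genes kept by edgeR's default filter and 0.980 over genes with at least 50 CPM. The common biological coefficient of variation of 9.23% ran from 4.92% without WT4 to 11.3%. The median gene-wise value was 7.06% with edgeR and 18.7% with DESeq2, and the cause was not tested. The 10 genes with the largest CV kept 3 members when the minimum level was 20 CPM, 0 when it was 200 CPM, and from 0 (without WT4) to 9 when 1 library was left out. The ABRE core was present in 64.0% of promoters of the 100 most abundant genes and in 76.0% of the 50 most abundant. The planned description of encoded proteins was not run. The cause of the other shifts was not tested either.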
